A study of Danio rerio with 3 samples.

Results

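The zebrafish genes of the Krüppel-like factors (KLFs) and the Sp factors, transcription factors of a single zinc finger family, were chosen by symbol, as every gene whose name in the deposited table was klf followed by a digit, or sp followed by a single digit and at most 1 further lower-case letter. This gave 32 genes of 35117, with 21 klf and 11 sp genes. RNA came from whole, untreated wild-type zebrafish embryos, with 1 library at 6 hours post fertilization (hpf), when gastrulation starts, and 2 libraries at 10 hpf, when it ends. The labels do not say how many embryos or clutches each library holds. In whole embryos, fewer cells of a type and less RNA per cell cannot be told apart.

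KLF and Sp proteins share a block of C2H2 zinc fingers at the C-terminal end, through which they bind GC-rich and CACCC-type elements in promoters and enhancers, and they differ in the regions that recruit coactivators or corepressors. In mammals they are known for roles in pluripotency, epidermis, blood, vessels and the nervous system. In zebrafish, klf2a, klf2b and klf17 have been placed downstream of the POU factor Pou5f3 in the outer epithelium and ectoderm of the early embryo, and sp5a and sp5l downstream of Wnt signals in mesoderm and neural plate.

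Expression was given as 1 RPKM value per gene and stage (reads per kilobase of gene relative to the library's read total), and the 10 hpf value covered both libraries. There is therefore no spread between replicates, no SD stands beside any level, and no test was made here. The authors' deposited table gives each gene a log2 fold of 10 hpf over 6 hpf and an empirical false discovery rate (FDR). A gene is said to be called, or to have risen or fallen, where that FDR was under 0.05, in the direction of the fold. This threshold was set here, as the deposited columns hold no calls. With 1 library at 6 hpf, this FDR cannot measure variation between embryos or clutches at that stage. Steps between low values showed that 1 RPKM stood for 16.99 reads per kilobase at 6 hpf and 23.24 at 10 hpf. All 5 genes taken as markers of the start of gastrulation had lower RPKM at 10 hpf, and all 5 markers of its end had higher RPKM, as the stage labels imply. Of the start markers, gsc changed little, at 18.2 and 16.6 RPKM. The lists were chosen with earlier results of these data known, so this is not an independent check of the labels.

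The fold in that table and the RPKM values do not share a scale. Over 7009 genes with more than 5 RPKM in each stage, the deposited fold was lower than the log2 RPKM ratio by a median of 0.60 (1.52-fold), and by 0.55 to 0.72 over the 13 klf and sp genes among them. A gene with equal RPKM at both stages thus carries a negative fold. For each member called lower it is stated below whether the call was kept after centring, that is, whether the conservative log2 fold deposited beside the fold stayed below 0 after subtraction of -0.50, the median fold of all genes reaching 5 RPKM. Centring could not remove a higher call or add any call.

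Between 6 and 10 hpf, sp9, sp8b, sp7, klf2a and klf11a rose and stood at 5 RPKM or more at 10 hpf. Of these, sp9 and sp8b are known from limb and fin buds, and sp7 is an osteoblast factor gene. Among members at 5 RPKM or more at either stage, klf5b and klf2b showed the largest decreases by deposited fold. Of the 32 genes, 10 were called higher, 8 lower and 14 neither way, and 4 of the higher calls were in genes under 1 RPKM at both stages. Over all genes, 29.5% were called, with 9.7% higher and 19.8% lower. At either stage 24 of the 32 members reached 1 RPKM, against 17494 of the 35117 genes. Of these 24, 14 were called (58.3%, against 49.2% of all genes at that level). They comprised 6 called higher and 8 lower, or 25% and 33.3%, against 16.3% and 32.9%. The share called lower among expressed members was thus close to the background. All 10 higher calls and 4 of the 8 lower calls were kept after centring, the latter being klf5b, klf2b, klf4 and klf5l. The lower call of klf17 was lost narrowly, with a conservative fold of -0.47 against the -0.50 subtracted. By an RPKM ratio of 2 or more with a pseudocount of 1, 7 of the 32 members were higher and 2 lower, where all genes had 11% and 9.37%. Among genes at 1 RPKM or more these shares were 29.2% and 8.33% for members and 22.1% and 18.8% for all genes.

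The median log2 fold of the 24 expressed members was -0.53 in the authors' deposited table, against -0.41 for all genes at 1 RPKM or more. On the ratio of RPKM values with a pseudocount of 1 the medians were 0.06 and 0.14, so the sign of the members' median depended on the scaling. The interquartile range of the members' folds ran from -1.13 to 0.91 in the authors' deposited table, and that of all genes at this level from -1.45 to 0.62.

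**Figure D1:**
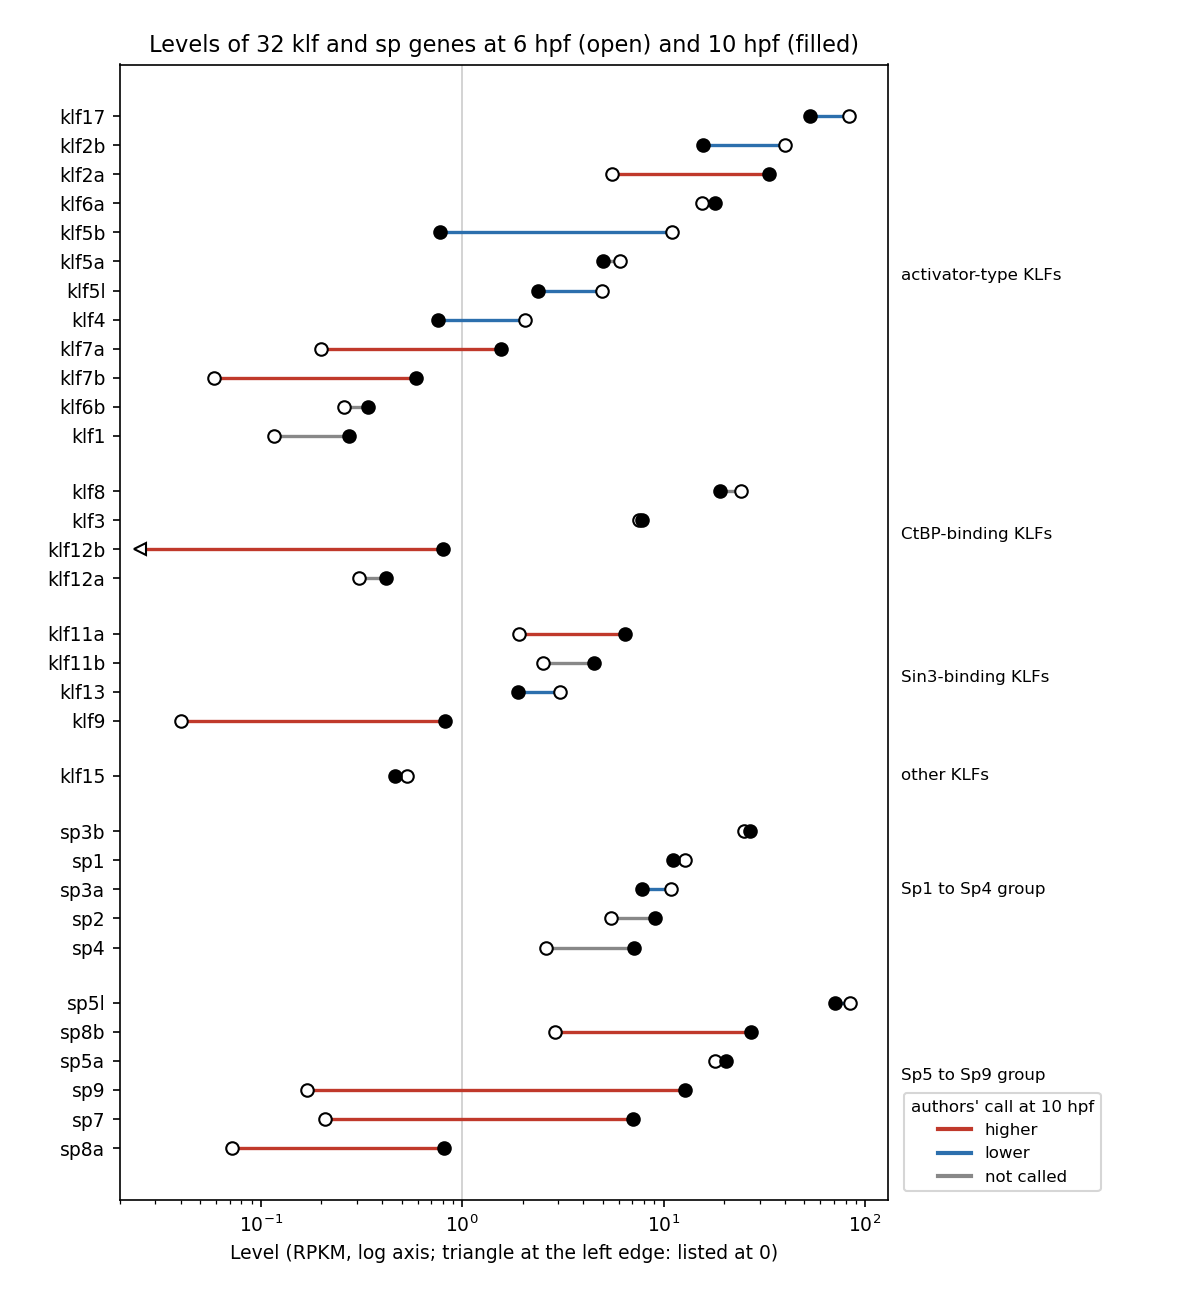
Level in RPKM of each of the 32 klf and sp genes at 6 hpf (open circles) and 10 hpf (filled circles). The axis is logarithmic and genes are grouped by subfamily. The joining line is coloured by call, at a deposited FDR under 0.05, and a triangle marks a value listed at 0. The longest red lines include those of sp9 and sp7, and the longest blue line to klf5b, from 10.96 to 0.774 RPKM.

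Summed over the 32 members on the RPKM scale, the level was nearly the same at both stages, at 371 RPKM at 6 hpf and 374 RPKM at 10 hpf. This was 0.0809% and 0.0806% of the summed RPKM of all genes. The make-up of the sum differed. The genes sp5l and klf17 together held 45.1% of it at 6 hpf and 33.1% at 10 hpf, while the other 30 genes went from 204 to 251 RPKM in sum. The activator-type KLFs, with klf17 counted among them, went from 45.5% to 35.1% of the family sum. Of this, klf17 alone held 22.4% of the family sum at 6 hpf and 14.2% at 10 hpf. The Sp5 to Sp9 group went from 28.4% to 37.1%. These shares are independent of the scaling between stages, whereas the near equality of the summed RPKM is not. The sums leave out zgc:153115, also named klf14 and klf16 in RefSeq, which the symbol rule misses. It stood at 62.2 RPKM at 6 hpf and 40.3 RPKM at 10 hpf, a change larger than the difference between the sums. The near equality and the shares thus hold for the 32 members only.

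**Figure D2:**
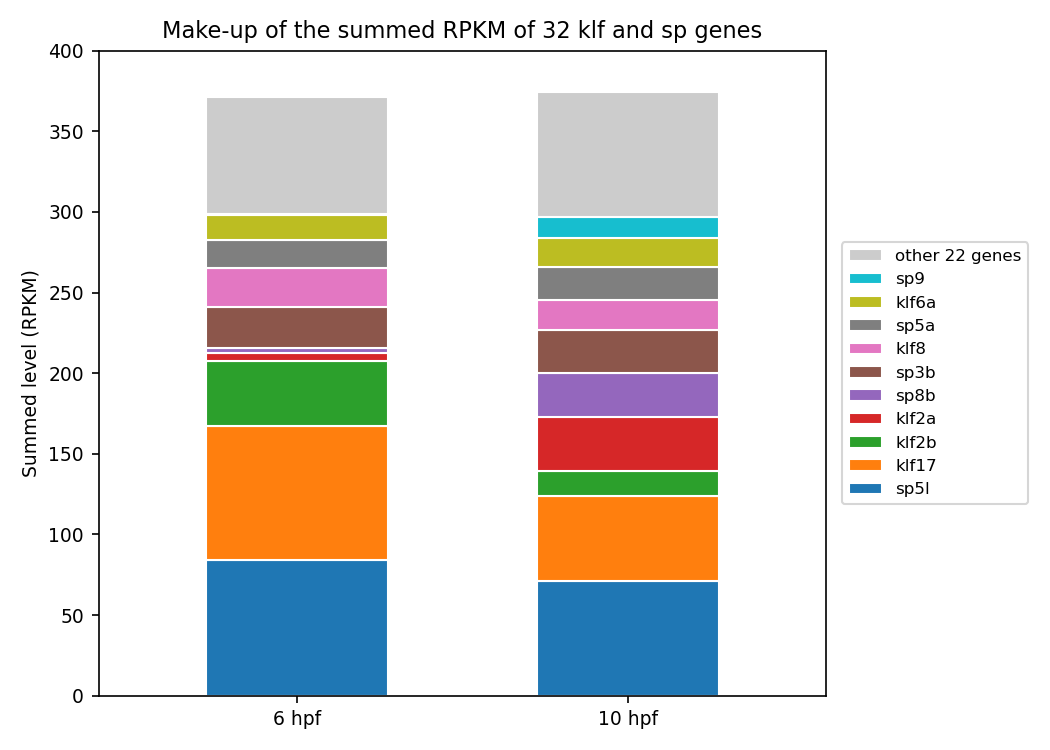
Summed RPKM of the 32 klf and sp genes at 6 and 10 hpf. The 10 genes shown by name are the most abundant at 10 hpf, and the other 22 are in grey. The grey block thus holds sp1, klf5b and sp3a, which were among the 10 most abundant at 6 hpf. The columns reach 371 and 374 RPKM, with smaller blocks for klf17 and klf2b and larger ones for klf2a, sp8b and sp9 at 10 hpf.

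The Sp5 to Sp9 group, whose members are related to the Drosophila gene buttonhead, held the largest increases in the family by deposited fold, those of sp9 and sp7. Of its 6 members, 4 were called higher, 1 lower and 1 not, where all genes had 9.7% higher and 19.8% lower. At 1 RPKM or more, 5 of these members held 3 higher calls and 1 lower call, against 16.3% and 32.9% of all genes. The gene sp9 (ENSDARG00000099374), known from the apical ectoderm of the fin and limb bud, rose from 0.170 RPKM at 6 hpf to 12.8 RPKM at 10 hpf. The authors' deposited table gave it a log2 fold of 5.23 and a conservative one of 3.89. The 6 hpf value stood for 2.89 reads per kilobase and the 10 hpf value for 297, so the earlier level rested on few reads. In order of level over all 35117 genes, sp9 moved from rank 20463 to rank 5122.

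The osteoblast regulator gene sp7 (ENSDARG00000019516, osterix) rose from 0.209 to 7.02 RPKM, and its fold in the authors' deposited table was 4.37 (conservative 3.12). At 6 hpf it stood at 3.55 reads per kilobase. The gene sp8b (ENSDARG00000056666), whose mouse counterpart acts in limb outgrowth and forebrain patterning, was already detected at 2.88 RPKM at 6 hpf and reached 27.0 RPKM, a 9.39-fold rise on the RPKM scale. For this gene the authors' deposited table gave a log2 fold of 2.64 (conservative 1.71). With this it went from the 17th to the 4th most abundant member. Its paralogue sp8a (ENSDARG00000011870) was also called higher, at 0.0724 and 0.811 RPKM, and made up 2.45% of the summed level of both sp8 genes at 6 hpf and 2.91% at 10 hpf.

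The other members of the group, sp5l and sp5a, were abundant at both stages. The level of sp5l (ENSDARG00000010124) was 84.1 RPKM at 6 hpf and 70.8 RPKM at 10 hpf, the highest of the family at each stage. It was called lower, with a log2 fold of -0.97 and an FDR of 0.0349 in the authors' deposited table. The conservative log2 fold was -0.08 and the call was not kept after centring, and the RPKM values differed 1.19-fold. The gene sp5a (ENSDARG00000076571) had 17.9 and 20.5 RPKM and was not called.

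The Sp1 to Sp4 group, glutamine-rich factors that are widely expressed in vertebrates, had all 5 members above 1 RPKM at both stages. None (0) was called higher, 1 was called lower and 4 were not called. All genes at 1 RPKM or more had 16.3% called higher and 32.9% lower. The most abundant was sp3b (ENSDARG00000007812), at 25.1 and 26.7 RPKM, followed by sp1 (ENSDARG00000088347) at 12.7 and 11.1 RPKM. Neither was called. The 1 lower call was sp3a (ENSDARG00000001549), at 10.9 and 7.83 RPKM, and it was not kept after centring. For sp2 (ENSDARG00000076763) the values were 5.50 and 9.04 RPKM. The gene sp4 (ENSDARG00000005186), known from neurons in mouse, had 2.59 and 7.13 RPKM, a ratio of 2.75, and missed the threshold at an FDR of 0.0569 in the authors' deposited table. This was the largest RPKM ratio among the 10 members at 1 RPKM or more that were not called.

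The activator-type KLFs, most of whose mammalian counterparts recruit acetyltransferases, held calls in both directions. The gene klf17 was counted with them. Of 12 members, 3 were called higher and 5 lower, while 4 were not called. Over all genes the shares were 9.7% higher and 19.8% lower. At 1 RPKM or more, 9 of these members held 2 higher and 5 lower calls, against 16.3% and 32.9% of all genes. Centring kept 4 of the lower calls. The largest decrease in the family was that of klf5b (ENSDARG00000062106), from 10.96 to 0.774 RPKM, a 14.2-fold drop in RPKM. The authors' deposited table gave it a log2 fold of -4.13 (conservative -2.75). The related gene klf5l (ENSDARG00000018757) fell from 4.96 to 2.37 RPKM. The third klf5 gene, klf5a (ENSDARG00000015506), was not called at 6.04 and 5.001 RPKM. Together these genes had 22.0 RPKM at 6 hpf and 8.14 RPKM at 10 hpf, and klf5a went from the middle of the 3 to the highest. In mouse, Klf5 is known for roles in the trophectoderm and the gut epithelium.

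The klf2 genes crossed. The gene klf2b (ENSDARG00000040432) fell from 40.0 to 15.7 RPKM, a 2.56-fold decrease in RPKM. The authors' deposited table gave it a log2 fold of -1.99 (conservative -1.16). Its paralogue klf2a (ENSDARG00000042667), known for its response to blood flow in endothelium and heart valves at later stages, rose 6.02-fold from 5.53 to 33.3 RPKM, and that table gave it a log2 fold of 1.98 (conservative 1.11). Their sum was 45.6 RPKM at 6 hpf and 49.0 RPKM at 10 hpf. The share of klf2a in it was 12.1% and then 68.0%. All 4 values rest on at least 94.0 reads per kilobase.

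The gene klf17 (ENSDARG00000038792, also named biklf and klf4b in RefSeq) is known from the prechordal polster, the hatching gland and the blood islands of zebrafish. Its level was 83.1 RPKM at 6 hpf and 53.0 RPKM at 10 hpf, the second highest of the family at each stage. It was called lower, with a log2 fold of -1.29 (conservative -0.47) and an FDR of 0.0028 in the authors' deposited table. The call was not kept after centring, by a narrow margin. Its conservative fold of -0.47 lay just above the -0.50 that was subtracted. It lay below -0.41, the median fold of all genes at 1 RPKM or more, so the outcome depends on the level that sets the centre. The RPKM values differed 1.57-fold. The gene klf4 (ENSDARG00000079922), whose mammalian counterpart is a reprogramming factor and an epidermal regulator, fell from 2.05 to 0.761 RPKM.

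The klf7 genes, whose mouse counterpart acts in neuron outgrowth, were both called higher. For klf7a (ENSDARG00000073857) the values were 0.199 and 1.56 RPKM, and klf7b (ENSDARG00000043821) stood at 0.0587 and 0.587 RPKM, or 0.998 and 13.6 reads per kilobase. The remaining expressed member, klf6a (ENSDARG00000029072), known from zebrafish liver outgrowth under the name copeb, was not called at 15.5 and 17.96 RPKM. The erythroid factor gene klf1 and the paralogue klf6b were below 1 RPKM at both stages and not called.

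Of 4 KLFs of the kind that binds the corepressor CtBP, 1 was called higher and 3 were not called. All genes had 9.7% called higher and 19.8% lower, or 16.3% and 32.9% at 1 RPKM or more. The gene klf8 (ENSDARG00000060661) had 24.2 and 19.0 RPKM and missed the threshold at an FDR of 0.0512 in the authors' deposited table. Its fold there, -0.96, was close to the -0.97 of sp5l, which was called. For klf3 (ENSDARG00000015495) the values were 7.57 and 7.78 RPKM. The higher call was klf12b (ENSDARG00000032197), listed at 0 at 6 hpf and at 0.801 RPKM at 10 hpf, and klf12a was not called. Among 4 KLFs of the kind that binds the corepressor Sin3, 2 were called higher, 1 lower and 1 not called, against the same shares. The gene klf11a (ENSDARG00000030844), related to the TGF-beta-inducible factors of mammals, rose from 1.91 to 6.41 RPKM, and the authors' deposited table gave it an FDR of 0.0346 and a conservative log2 fold of 0.08. Its paralogue klf11b (ENSDARG00000013794), at 2.51 and 4.52 RPKM, was not called. The gene klf13 (ENSDARG00000061368) was called lower at 3.05 and 1.89 RPKM, a call that was not kept after centring. The hormone-responsive gene klf9 was called higher at 0.0403 and 0.825 RPKM, of which the first value stood for 0.685 reads per kilobase.

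**Figure D3:**
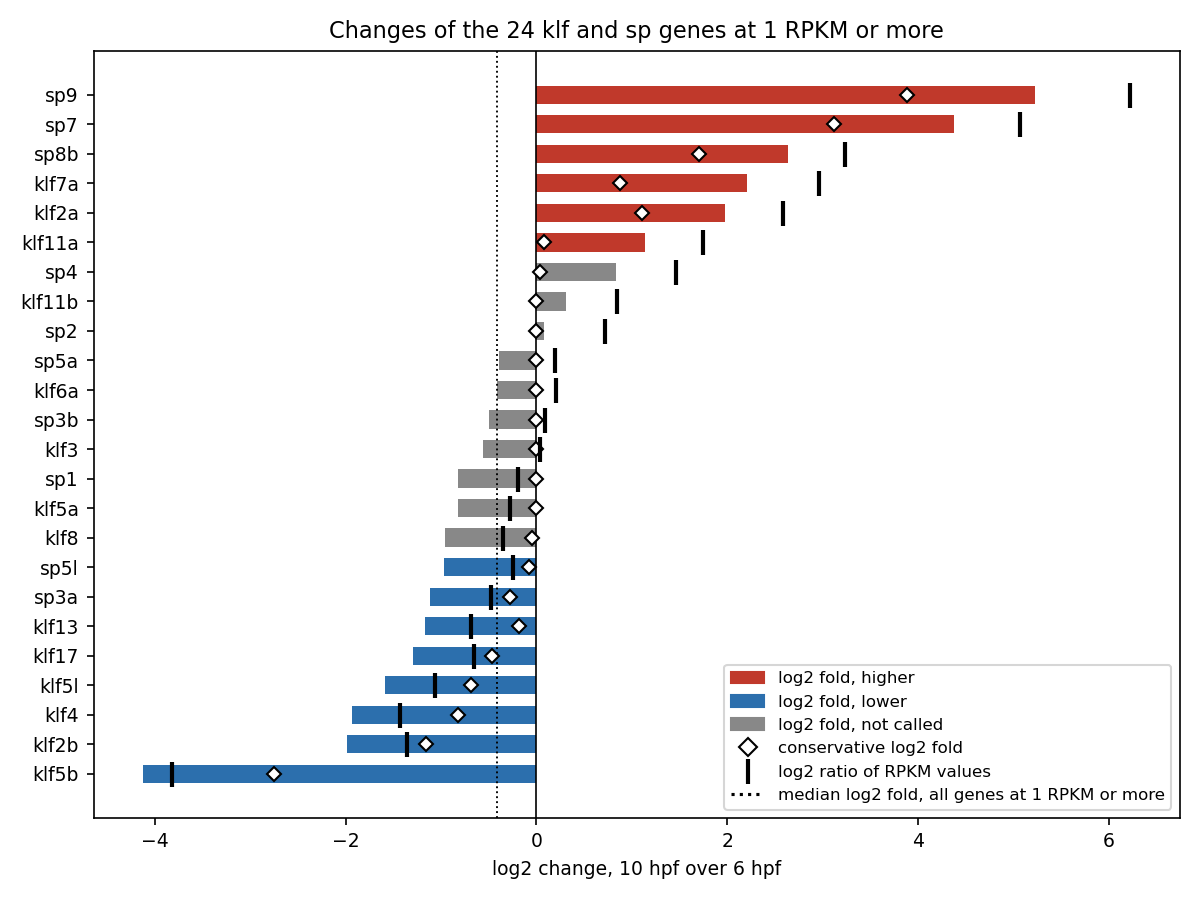
Change from 6 to 10 hpf of the 24 klf and sp genes at 1 RPKM or more on a log2 scale: bars give the log2 fold of the authors' deposited table coloured by call, diamonds the conservative log2 fold, ticks the log2 ratio of RPKM values, and the dotted line the median fold of all genes at 1 RPKM or more (-0.41). Ticks lie to the right of every bar end, and the diamonds of klf11a and sp5l, both called, and of sp4 and klf8, not called, lie within 0.08 of 0.

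Members under 1 RPKM at both stages numbered 8, with values between 0 and 0.532 RPKM at 6 hpf and between 0.273 and 0.825 RPKM at 10 hpf. They were klf1, klf6b, klf7b, klf9, klf12a, klf12b, klf15 and sp8a. Of these, 4 were called higher (klf7b, klf9, klf12b and sp8a), 0 lower and 4 not called. Values of this size rest on few reads at 6 hpf. Over all genes, 9.7% were called higher and 19.8% lower. The share among genes under 1 RPKM alone was not counted.

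Zebrafish carry duplicates of many family genes, and 19 members differ from another member only in the final letter of the symbol, which makes 11 pairs over 9 names. In 3 pairs both genes were called the same way (klf7a and klf7b, sp8a and sp8b, klf5b and klf5l), in 1 pair in opposite ways (klf2a and klf2b), in 6 pairs only 1 gene was called and in 1 pair (klf6a and klf6b) neither. A difference in call is not a test of the difference between the genes. The shares called over all genes were 9.7% higher and 19.8% lower. Pairs of all genes were not counted, and the klf5 genes enter several pairs, so these counts show no pattern of paralogues by themselves. Among the pairs called the same way, klf7b and sp8a were under 1 RPKM at both stages. The difference of log2 folds in the authors' deposited table was 3.96 for klf2a minus klf2b and 3.30 for klf5a minus klf5b, while it was 0.58 for sp5a minus sp5l and -0.62 for sp3a minus sp3b. A scaling factor shared by all genes cancels in such a difference. For some members with few reads at 6 hpf, such as sp8a, the deposited fold departed from the RPKM ratio by more than the median offset of 0.60. For others it did not, as for klf12a, with a fold of -0.10 and a log2 RPKM ratio of 0.43. The gene sp8a had a fold of 2.29 and a log2 RPKM ratio of 3.49, against 2.64 and 3.23 for sp8b, so their order differed between measures. In level, sp5l, sp8b and klf6a were among the genes that dominated their pairs. At 6 and 10 hpf, sp5a held 17.5% and 22.4% of the summed sp5 level, and sp8a 2.45% and 2.91% of the summed sp8 level. The gene klf6a held 98.4% and 98.1% of the summed klf6 level. The sources used here do not say how reads that fit both copies were counted.

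**Figure D4:**
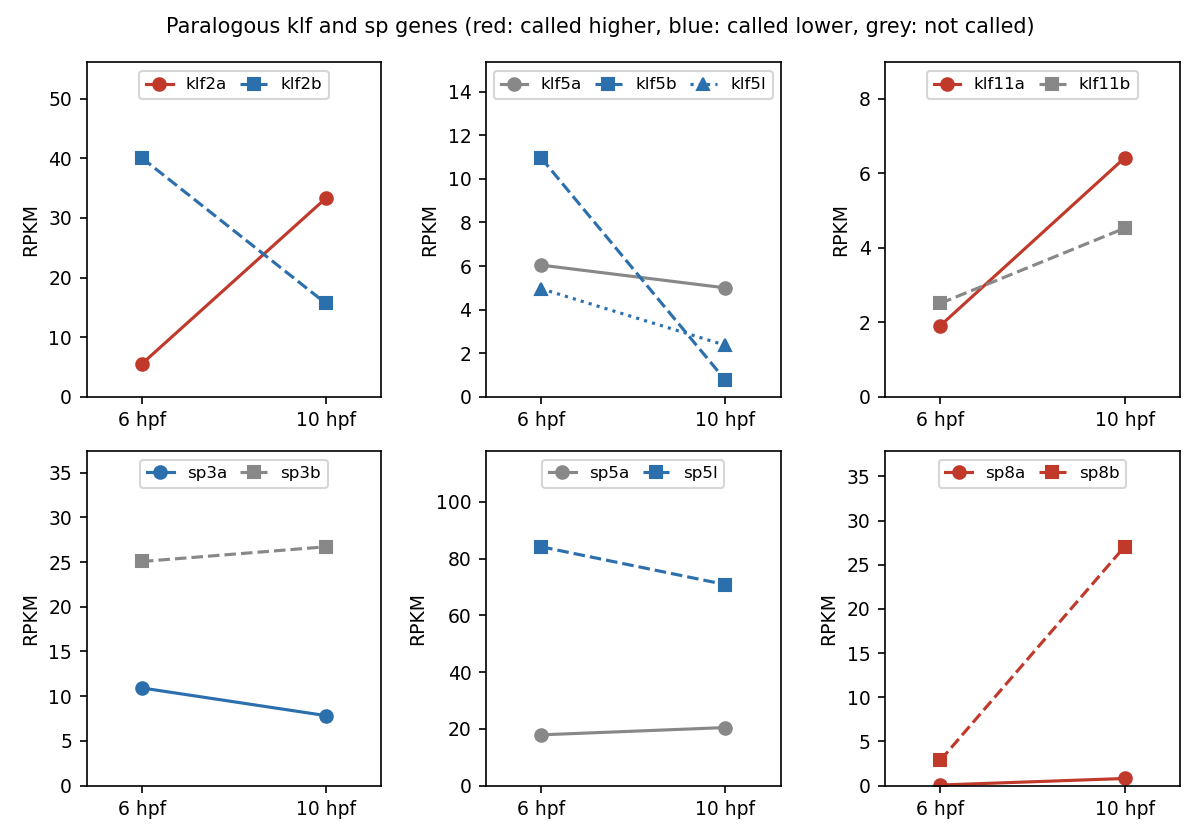
RPKM at 6 and 10 hpf of 6 groups of paralogous klf and sp genes on linear axes that start at 0, coloured by call. The lines of klf2a and klf2b cross, as do those of klf11a and klf11b, and of klf5b and the other klf5 genes. In contrast, sp5l stays above sp5a, sp3b above sp3a and sp8b above sp8a at both stages.

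All 32 members were found by symbol in the RefSeq gene table of assembly GRCz12tu, which was used only for the order of protein-coding genes along chromosomes. There, 10 members form 5 pairs of immediate neighbours. In 2 of these pairs the neighbours were called in opposite ways. The gene sp9 rose from 0.170 to 12.8 RPKM beside sp3a, at 10.9 and 7.83 RPKM, whose lower call was not kept after centring. The gene klf12b, listed at 0 and then at 0.801 RPKM, lies beside klf5b, which fell from 10.96 to 0.774 RPKM. The duplicate of that second pair, klf12a beside klf5a, had 0 calls. In the pairs sp8a and sp4, and klf8 and klf5l, 1 gene each was called (sp8a higher and klf5l lower). In none (0) of the 5 pairs were both neighbours called the same way. Over all genes, 9.7% were called higher and 19.8% lower. Neighbouring pairs of all genes were not counted, so these 5 pairs show no pattern of neighbours by themselves.

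A few related genes fall outside the symbol rule. The gene listed as zgc:153115 (ENSDARG00000069342), for which RefSeq gives klf14 and klf16 as other names, was called lower at 62.2 and 40.3 RPKM. Its fold in the authors' deposited table was -1.27, with an FDR of 0.0040. Whether this call is kept after centring is not given here. By those names it would belong to the Sin3-binding KLFs, whose counts above leave it out. On the RPKM scale it would be the third most abundant gene of the family at each stage. SP6, written in capitals in the table, was listed at 0 and then at 0.331 RPKM and was not called.

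Genes that work with KLF and Sp proteins were counted in lists over all measured genes, and of all genes tested 9.7% were called higher and 19.8% lower. Most genes of these lists reached 1 RPKM, where the shares are 16.3% and 32.9%. Of 17 measured genes of the CtBP and Sin3 corepressor complexes, 2 were called higher and 2 lower, and centring kept 0 of the lower calls. The leading gene was rcor1, which rose from 9.89 to 42.8 RPKM. Among 11 acetyltransferase coactivators, 0 were called higher and 2 lower (1 after centring), led by kat7b, from 26.8 to 12.2 RPKM. Of 8 ubiquitin ligases, among them ligases of KLF proteins in mammals, 6 were called lower (5 after centring) and 1 higher. The higher call was wwp1, a ligase of KLF5 in mammals, from 3.07 to 17.5 RPKM, and itchb fell from 7.38 to 2.42 RPKM. The 7 symbols listed for the related Egr and Wt1 zinc finger factors matched 8 measured entries. Of these entries, 2 were called higher and 1 lower, a call that centring kept, and 2 reached 1 RPKM. Counted at 1 RPKM or more, 15 corepressor genes held 2 higher and 2 lower calls, 10 acetyltransferases 0 and 1, and 8 ligases 1 and 6. The 2 Egr and Wt1 entries at that level held 2 and 0.

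Lists for tissues in which family members are known to act were counted over all measured genes too, against the same 9.7% and 19.8%. Of 23 Wnt and FGF inputs and partners of the sp5 genes, 3 were called higher and 7 lower, of which 5 were kept after centring, and 13 were not called. The leading genes were tbx6, at 1.18 and 79.7 RPKM, and tbx16, at 123 and 34.4 RPKM. Of 11 hatching gland genes, 6 were called higher and 1 lower, which centring kept, and the hatching enzyme genes he1a and he1b, both listed at 0 at 6 hpf, stood at 32.1 and 17.7 RPKM at 10 hpf. Beside these values klf17 was at 83.1 and 53.0 RPKM. In the enveloping layer list of 22 outer epithelial genes, 3 were called higher and 9 lower, with 9 of the lower calls left by centring, led by the grainyhead-like genes grhl2b, from 0.366 to 7.19 RPKM, and grhl2a, from 15.8 to 2.25 RPKM. Of 19 genes of primitive blood and endothelium, 4 were called higher and 4 lower, with 4 of the lower calls left by centring. The leading gene there was drl, which fell from 70.4 to 30.9 RPKM. Against 16.3% and 32.9% at 1 RPKM or more, 22 Wnt and FGF genes held 3 higher and 7 lower calls, 9 hatching gland genes 6 and 1, 21 enveloping layer genes 3 and 9, and 7 blood and endothelium genes 2 and 2. Whether the levels of klf and sp genes follow the amount of any of these tissues was not tested.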

How the data were processed

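RNA-seq of whole wild-type zebrafish embryos was analysed from 1 table of the authors. The submitters' processing notes name TopHat2 2.1.1 and the genome build GRCz10. The sources used here name no read counter, annotation or filter. Per the file headers, the authors deposited an RPKM value for 6 hpf, 1 RPKM value over both 10 hpf libraries, a log2 fold, a conservative log2 fold (headed GFOLD with 0.01 in brackets) and an empirical false discovery rate (FDR). This FDR was taken as deposited and was not computed here. It is 1 wherever the conservative fold is 0.

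Members, subfamilies and gene lists were chosen with earlier results of these data known. Subfamilies follow the number in the symbol, after the cofactors of mammalian proteins, with klf17 put among the activator-type KLFs. Members at 1 RPKM or more at either stage are named with both values, and up to 2 called genes at 5 RPKM or more per list, of which 1 is left out here. Sequencing depth was fitted to the steps of low RPKM values of 5S rRNA genes (tolerance 0.01 bases; 87.5% of 80 values whole at each stage), and the fit and the counting steps were tested on simulated data. Intervals are not given, since counts per gene were not used here. Calculations used Python 3.11.15 with pandas 2.3.3. Alternatives were an FDR under 0.01, an absolute log2 fold of at least 1, minimum levels of 1 and 5 RPKM, centred folds, RPKM ratios with pseudocounts of 0.1, 1 and 5, and current gene names.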

Additional observations from a re-analysis of the deposited data

How the results depend on the processing

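Called higher members numbered 6 at 1 RPKM or more and 5 at 5 RPKM or more, against 10. Called lower members numbered 5 at 5 RPKM or more, 4 after centring and 2 by an RPKM ratio of 2 or more (pseudocount 1), against 8. Activator-type KLFs had 1 higher and 3 lower at 5 RPKM or more and 2 lower by the ratio. The higher call among CtBP-binding KLFs became 0 at 1 RPKM, at 5 RPKM and by the ratio. Sin3-binding KLFs had 0 higher and 0 lower at a rate under 0.01, 1 higher at 1 RPKM, 1 higher and 0 lower at 5 RPKM, 0 lower after centring, and 1 higher and 0 lower by the ratio. The single lower call of the Sp1 to Sp4 group became 0 after centring and by the ratio. That of the Sp5 to Sp9 group became 0 at a rate under 0.01, with a minimum log2 fold of 1, after centring and by the ratio.

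With pseudocounts of 0.1, 1 and 5 on the RPKM ratio, the members' median turned positive (0.0654, 0.0619 and 0.0506), as did that of the Sp1 to Sp4 group (0.0915, 0.0884 and 0.077). Medians were -0.65, -0.64 and -0.29 for the 9 activator-type KLFs at 1 RPKM or more (-1.29 as deposited, and -0.62 with no minimum level). They were -0.16, -0.15 and -0.13 for CtBP-binding KLFs (-0.76), over only 2 genes at that level, klf3 and klf8. For Sin3-binding KLFs 1 gene, klf11a, is left at 5 RPKM or more, so 1.14 is its fold alone. The deposited median of 0.31 covers 3 genes and is the fold of klf11b. The median of the Sp5 to Sp9 group, over 5 genes, was 1.21 with a pseudocount of 5 (2.64). Differences between paralogues on the RPKM ratio (pseudocount 1) changed sign for klf6a minus klf6b (0.11) and klf7a minus klf7b (0.51), and were -0.73 for klf12a minus klf12b, 2.52 for klf5a minus klf5b, -1.93 for klf5b minus klf5l and -2.10 for sp8a minus sp8b. A pseudocount shrinks the ratios of low genes by construction. The ratio also lacks the 0.60 offset of the deposited fold, which bears on the medians, while an offset shared by 2 genes cancels in their difference. Without a pseudocount the log2 RPKM ratios were 0.21 for klf6a and 0.40 for klf6b. They were 2.97 for klf7a and 3.32 for klf7b, so both differences had the sign of the deposited ones. Matching current names gave 33 members. No paired analysis was possible because the table holds 1 value per stage, and replicates could not be left out for the same reason. A value was regarded as moved beyond a factor of 1.5, since no replicate spread exists.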
